A study of Mus musculus with 44 samples.

Results

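Collagen genes were taken as every row of the deposited expression table whose symbol is Col, a type number, a and a chain number (Col1a1, Col4a2 and so on). The rule found 43 of 23234 genes, and it used no measured value. By the type in the symbol, 11 were fibrillar (types I, II, III, V, XI, XXIV and XXVII), 8 were basement membrane genes (types IV, XV and XVIII) and 24 were of other types. Expression was measured by poly(A) RNA sequencing in 44 libraries of cultured mouse cells. The cultures held induced leukocyte stem (iLS) cells, blood progenitors made from C57BL/6J fetal liver with an Id3-ERT2 construct and kept multipotent while 4-hydroxytamoxifen (4-OHT) is present. All groups were grown on TSt-4 cells, a stromal feeder line. The IMDM medium at 0 h held 4-OHT at 40 nM, IL-7 at 20 ng/mL, and both Flt-3L and SCF at 10 ng/mL, and all later groups had been moved to 5 ng/mL IL-7 without 4-OHT to start B cell differentiation. There were 16 time points, with 3 libraries at each of 0, 0.5, 1, 2, 4, 6, 8, 10, 12, 24, 48, 72, 96 and 144 h and 1 library each at 120 and 168 h. Time in culture and the change of medium cannot be told apart in these groups. The labels do not say that the replicates were separate cultures, and the p-values therefore measure the spread between these libraries. Nor do they say that feeder cells were taken out before RNA was isolated. In such bulk RNA, fewer cells of a type and less RNA per cell cannot be told apart.

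Collagens are secreted as 3 chains wound into a triple helix, and each gene encodes 1 chain. Fibrillar collagens build the tensile fibres of bone, skin and connective tissue, type IV forms the sheet-like network of basement membranes, and other types cap, link or anchor these structures. In bone marrow and fetal liver, collagens are made chiefly by stromal cells such as fibroblasts, while blood progenitors mostly sense them through receptors.

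Promoter sequences are shown for 4 members whose values are described further on, Col3a1 and Col8a1, which rose after the change of medium, and Col11a2 and Col23a1, which fell. Each is the 250 bases that end just before the annotated start of transcription, read 5′ to 3′ on the strand of the gene, from RefSeq on build GRCm38.p6. The matches to CANNTG, the core bound by the E proteins that Id proteins block, are in capitals. The regions are chr1:45311288-45311537 (plus strand) for Col3a1, chr16:57754738-57754987 (minus strand) for Col8a1, chr17:34038888-34039137 (plus strand) for Col11a2 and chr11:51289670-51289919 (plus strand) for Col23a1.
Col3a1: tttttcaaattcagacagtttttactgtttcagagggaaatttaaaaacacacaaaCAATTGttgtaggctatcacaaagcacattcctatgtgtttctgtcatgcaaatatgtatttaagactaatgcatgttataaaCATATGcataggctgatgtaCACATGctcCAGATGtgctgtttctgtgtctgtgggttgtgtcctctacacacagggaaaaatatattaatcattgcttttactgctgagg
Col8a1: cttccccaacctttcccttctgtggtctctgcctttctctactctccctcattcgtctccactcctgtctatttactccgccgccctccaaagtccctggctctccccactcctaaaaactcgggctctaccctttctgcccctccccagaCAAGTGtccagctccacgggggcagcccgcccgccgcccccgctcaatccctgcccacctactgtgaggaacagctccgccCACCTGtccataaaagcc
Col11a2: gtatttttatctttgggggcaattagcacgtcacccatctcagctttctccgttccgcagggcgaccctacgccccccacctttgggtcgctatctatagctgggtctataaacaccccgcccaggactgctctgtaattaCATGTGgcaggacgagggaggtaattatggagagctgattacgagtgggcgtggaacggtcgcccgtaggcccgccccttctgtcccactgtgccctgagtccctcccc
Col23a1: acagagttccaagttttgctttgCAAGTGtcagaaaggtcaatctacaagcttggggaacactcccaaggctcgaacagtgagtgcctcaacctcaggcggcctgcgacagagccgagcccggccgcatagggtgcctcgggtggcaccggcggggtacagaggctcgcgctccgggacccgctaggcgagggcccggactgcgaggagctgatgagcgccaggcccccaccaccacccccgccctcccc
Col3a1 held 4 matches to CANNTG, Col8a1 held 2, and Col11a2 and Col23a1 held 1 each. Both members that rose and both that fell held the motif. Of 38 RefSeq promoter entries that matched 35 of the 43 collagen genes, 19 held CANNTG, against 66.2% of all 32851 entries of the same length. The letters TATAAA stood 117 to 112 bases before the start of Col3a1 and 143 to 138 bases before that of Col11a2, and 13.2% of collagen entries held them, against 12.4% of all. GGGCGG, a GC box, occurred 4 times in Col8a1, 2 times in Col11a2 and 1 time in Col23a1, and was held by 57.9% of collagen entries against 32.7% of all. CCAAT was in none of these 4 windows, and 34.2% of collagen entries held it, against 33.8% of all. Both strands were searched, and none of these motifs contains another. A match is a string of letters and not a site shown to be bound.

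The values were FPKM, fragments scaled to transcript length and to the mapped total, which allow levels of different genes to be compared per length. They summed to 516025 to 701705 per library, and 11520 to 12316 genes reached 1 FPKM. Sequencing depth is unknown, and the spacing of low values put relative depth between 0.555 and 2.25. Tests ran on log2(FPKM + 1) over 13907 genes with at least 1 FPKM in 3 of 42 libraries, with limma and a threshold of 0.05 on the adjusted p. Of the 43 collagens, 26 were tested: 8 fibrillar, 4 basement membrane and 14 of other types. The other 17 had means of 0 to 0.194 FPKM. They include Col2a1, the main collagen of cartilage (0.147 FPKM), Col15a1 (0.191), Col17a1 (0.194), and the type IV genes Col4a3 and Col4a4 (0.0604 and 0.0269), and Col13a1 was listed at 0 in all 44 libraries. Their highest single value was 1.08 FPKM, for Col4a6 in 1 library. At the edge of the filter, Col9a1 was tested with 3 libraries at 1 FPKM. A sum of fragments spread over 2 overlapping genes cannot be resolved without strand, which the sources used here do not mention for the counting. This concerns Col4a1 and Col4a2, which start 21 bases apart on opposite strands of chromosome 8, at 11312826 and 11312805 (GRCm38.p6), and Col10a1 with Nt5dc1 and Col9a3 with Tcfl5, which share exonic bases.

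Marker genes of 2 cell sources moved in opposite directions over the same hours. The summed FPKM of 23 stromal markers without collagens (Pdgfra, Fn1, Cald1 and others) at 0, 0.5, 6, 24, 72 and 144 h was 677 ± 542 (SD, n = 3), 4067 ± 425, 8254 ± 278, 5161 ± 679, 2780 ± 612 and 1527 ± 399.9. That of 20 general blood-cell markers (Ptprc, Coro1a, Laptm5 and others) was 2900 ± 406, 1469 ± 71.9, 947 ± 47.1, 713 ± 272, 1426 ± 372 and 2212 ± 235 at the same times. At 24 h all 23 stromal markers were called higher than at 0 h and all 20 blood-cell markers lower. Of all genes tested, 20.8% were called higher and 22.5% lower at that time. The 6 multipotent progenitor markers summed to 669 ± 29.7 FPKM at 0 h and 681 ± 305 at 24 h, and 5 of them were called lower and 1 higher. The gene called higher was Ly6a, which carried the later sum with a mean of 541 FPKM at 24 h against 131 at 0 h. Libraries labelled as iLS cells thus held transcripts of both kinds at every time. The endothelial markers Tie1 and Cldn5 were listed at 0 in all 44 libraries, Cdh5 in 40, and the 8 endothelial markers summed to means of 2.15 FPKM at 0 h and 0.262 at 24 h. The 8 epithelial markers summed to 1.87 and 2.38 FPKM. Of the 7 smooth muscle markers, 5 were tested and all 5 were called higher at 24 h, with a sum of 1197 ± 186 against 147 ± 131 FPKM (2 of them, Acta2 and Tagln, are also stromal markers). The part of these lists in the collagen results was not tested.

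Together the 43 collagen genes summed to 506 ± 315 FPKM at 0 h (SD, n = 3), with libraries between 240 and 855. By 0.5, 6, 12 and 48 h they reached 2312 ± 330, 2552 ± 271, 3106 ± 394 and 3315 ± 937 FPKM, and at 72, 96 and 144 h they stood at 2528 ± 1043, 1263 ± 606 and 804 ± 251. As a share of all FPKM in a library that was 0.0832% ± 0.0545 before the change, 0.378% ± 0.0867 after 0.5 h and 0.535% ± 0.178 by 48 h. The 0.5 h libraries (1989.8 to 2649.9 FPKM) all lay above those of 0 h. Levels were concentrated in few genes: 6 members had a mean of at least 100 FPKM over the 42 libraries and 14 of at least 10. Over all time points, 23 of the 26 tested members were called in limma's F test, where 56% of all genes tested were called, and Col9a1, Col9a3 and Col28a1 were not.

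**Figure D1:**
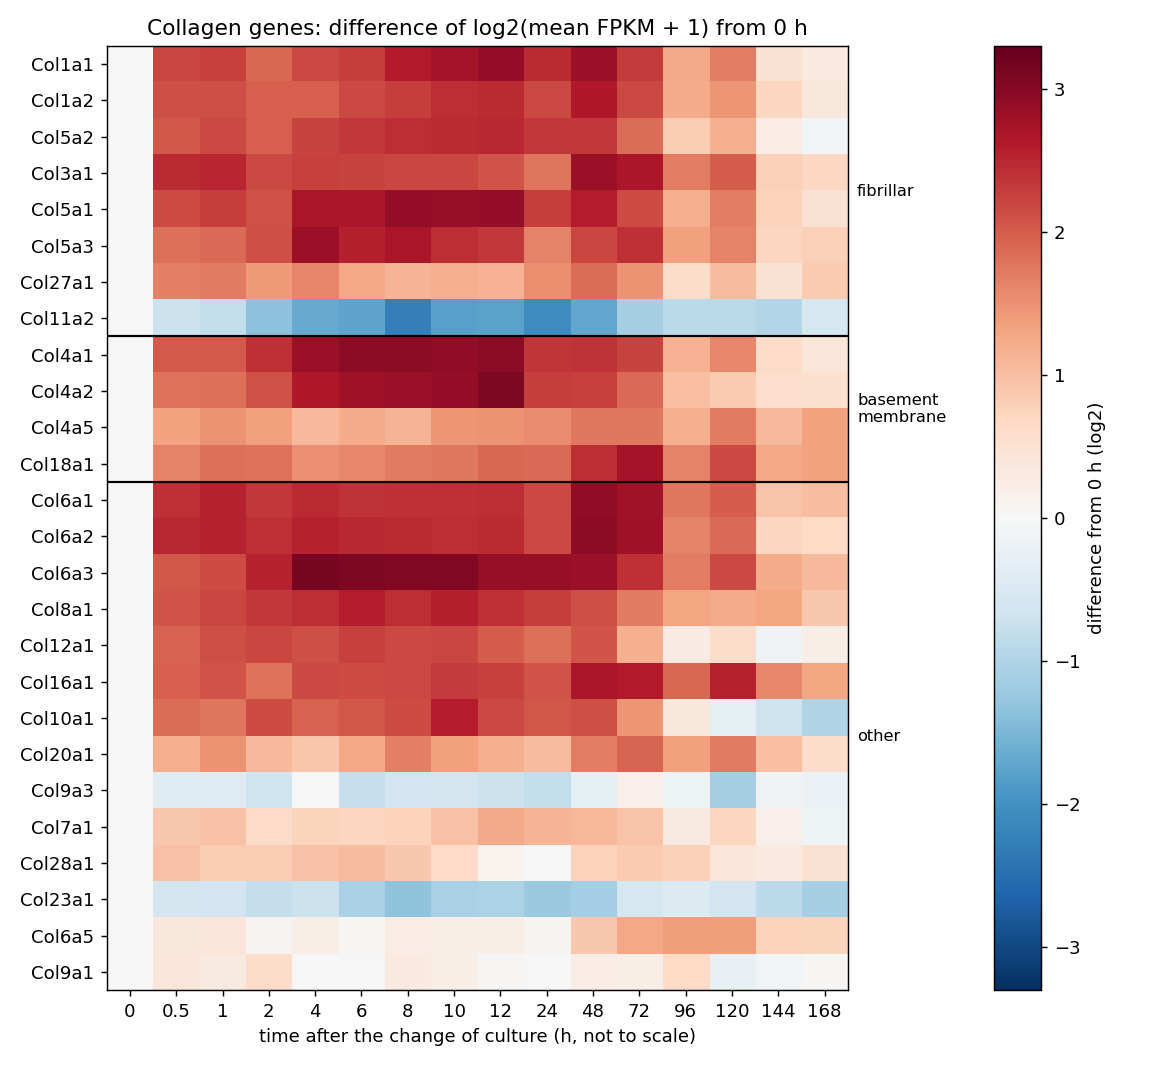
Difference in log2(mean FPKM + 1) from 0 h (colour) for the 26 tested collagen genes (rows, by class) at 16 time points in hours (columns, not to scale), with 3 libraries per time point and 1 at 120 and 168 h. Most rows of each class are red from 0.5 to 72 h, and Col11a2 and Col23a1 stay blue, in values that are not scaled to any marker list. Scaled to the stromal markers no member was called higher at 0.5, 6 or 24 h, where 0.954, 0.717 and 0.996% of all called genes were higher.

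Against 0 h, the members called higher numbered 20 of 26 at 0.5 h (14.3% of all genes were called higher), 21 at 6 h (19% of all), 20 at 24 h (20.8% of all), 21 at 72 h (17.2% of all) and 4 at 144 h (5.64% of all). Members called lower numbered 0 after 0.5 h (7.29% of all genes), 2 by 6 h (19.2%), 2 by 24 h (22.5%), 1 by 72 h (8.23%) and 0 by 144 h (3.24%). The median log2 change of the members was 1.89, 2.27, 1.95, 1.92 and 0.71 at these times, and that of all genes tested was -0.06, -0.06, -0.06, 0.03 and 0.03. All 5 comparisons share the 0 h libraries, and the members that passed the filter include some that passed through their later values, such as Col18a1, Col28a1 and Col6a5. Scaled to the stromal markers, 0 members were called higher at 0.5, 6 and 24 h, and 5, 17 and 13 were called lower. That scaling moved the median of all genes to -2.40, -3.02 and -2.67. It called 11636, 12274 and 11848 of all genes, 0.954, 0.717 and 0.996% of them higher. Scaled to the blood-cell markers, 21, 21, 20, 22 and 3 members were called higher at the 5 times and 0 lower, with all-gene medians of 0.66, 1.16, 1.67, 0.89 and 0.38. Under the stromal scaling the counts at 72 h were 5 higher and 4 lower, and at 144 h 2 higher and 6 lower. At these times 11343 and 9741 of all genes were called, 3.24 and 3.46% of them higher.

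Within the groups of consecutive library codes that hold 1 library of each time, the members' median change from 0 to 0.5 h was 1.03, 2.40 and 2.27, with 23 of 26 members above 0 in each. The stromal markers' medians in the same 3 groups were 1.25, 3.15 and 2.74, and those of the blood-cell markers -0.71, -1.11 and -1.06. From 0 to 24 h, the 2 code groups that held both times gave member medians of 2.37 and 2.20. No code group held both 0 h and 72 or 144 h, so for those comparisons code group and time could be separated only by a fit with code group as a term.

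The type I collagen genes had the highest levels. Col1a1, which encodes 2 of the 3 chains of the type I fibre, was at 61.0, 123 and 285 FPKM in the 0 h libraries, 684, 812 and 684 after 0.5 h, 808, 1048 and 724 by 24 h, and 196, 198 and 278 by 144 h. Every 0.5 h and 24 h library lay above every 0 h library, while those of 144 h fell inside the 0 h range. The change was 2.48 ± 0.37 (log2, SE) after 0.5 h, adjusted p = 8.22e-06 in limma, 2.71 by 24 h and 0.77 by 144 h (adjusted p = 0.217). Its partner Col1a2, the remaining chain of type I, was at 45.6, 73.2 and 188 FPKM at 0 h, 425, 471 and 452 after 0.5 h, 465, 614 and 329 by 24 h and 180, 126 and 201 by 144 h. The 0.5 h libraries of Col1a2 lay within a narrow band far above 0 h, with a log2 change of 2.37 ± 0.31 (adjusted p = 1.49e-06 in limma). Scaled to the stromal markers, the 0.5 h changes were -0.0574 for Col1a1 and -0.155 for Col1a2, neither called. Both genes were highest in replicate 3 among the 0 h libraries. The stromal marker sum of the 0 h libraries ranged from 297 to 1298 FPKM.

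Col5a2, a chain of type V that sits inside type I fibres and regulates their width, was at 19.4, 28.4 and 82.8 FPKM at 0 h, 186, 186 and 179 after 0.5 h, 212, 218 and 239 by 24 h and 56.7, 38.8 and 60.9 by 144 h. The libraries of 0.5 and 24 h were close to each other and did not overlap those of 0 h, while those of 144 h did. The log2 change was 2.32 ± 0.30 at 0.5 h (adjusted p = 8.37e-07 in limma) and 2.60 at 24 h. Col3a1, the type III fibre of vessels and soft tissue, was at 15.4, 21.4 and 39.1 FPKM at 0 h, 166, 163 and 106 after 0.5 h, 94.6, 96.5 and 71.8 by 24 h and 34.5, 22.6 and 76.1 by 144 h. Its groups at 0.5 and 24 h lay above 0 h without overlap, and the 144 h libraries overlapped those of both 0 h and 24 h. Its log2 change was 2.55 ± 0.33 at 0.5 h (adjusted p = 9.86e-07 in limma), 1.84 at 24 h and 2.72 at 72 h. Scaled to the stromal markers it was -0.99 at 24 h, adjusted p = 0.000623.

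Of all genes, 14.3, 19, 20.8, 17.2 and 5.64% were called higher at 0.5, 6, 24, 72 and 144 h. Among the 8 fibrillar genes tested, 7 were called higher at each of 0.5, 6, 24 and 72 h and 0 at 144 h. The other members of that rise were Col5a1 and Col5a3, further type V chains, and Col27a1, a fibrillar collagen of cartilage. At 6 h Col5a1 stood at 119 ± 10.6 FPKM against 17.9 ± 13.4 at 0 h, and Col5a3 at 19.9 against 2.52. Col27a1 was far lower, at 5.46 against 1.68 FPKM. No fibrillar gene was called higher at 6 h after scaling to the stromal markers.

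**Figure D2:**
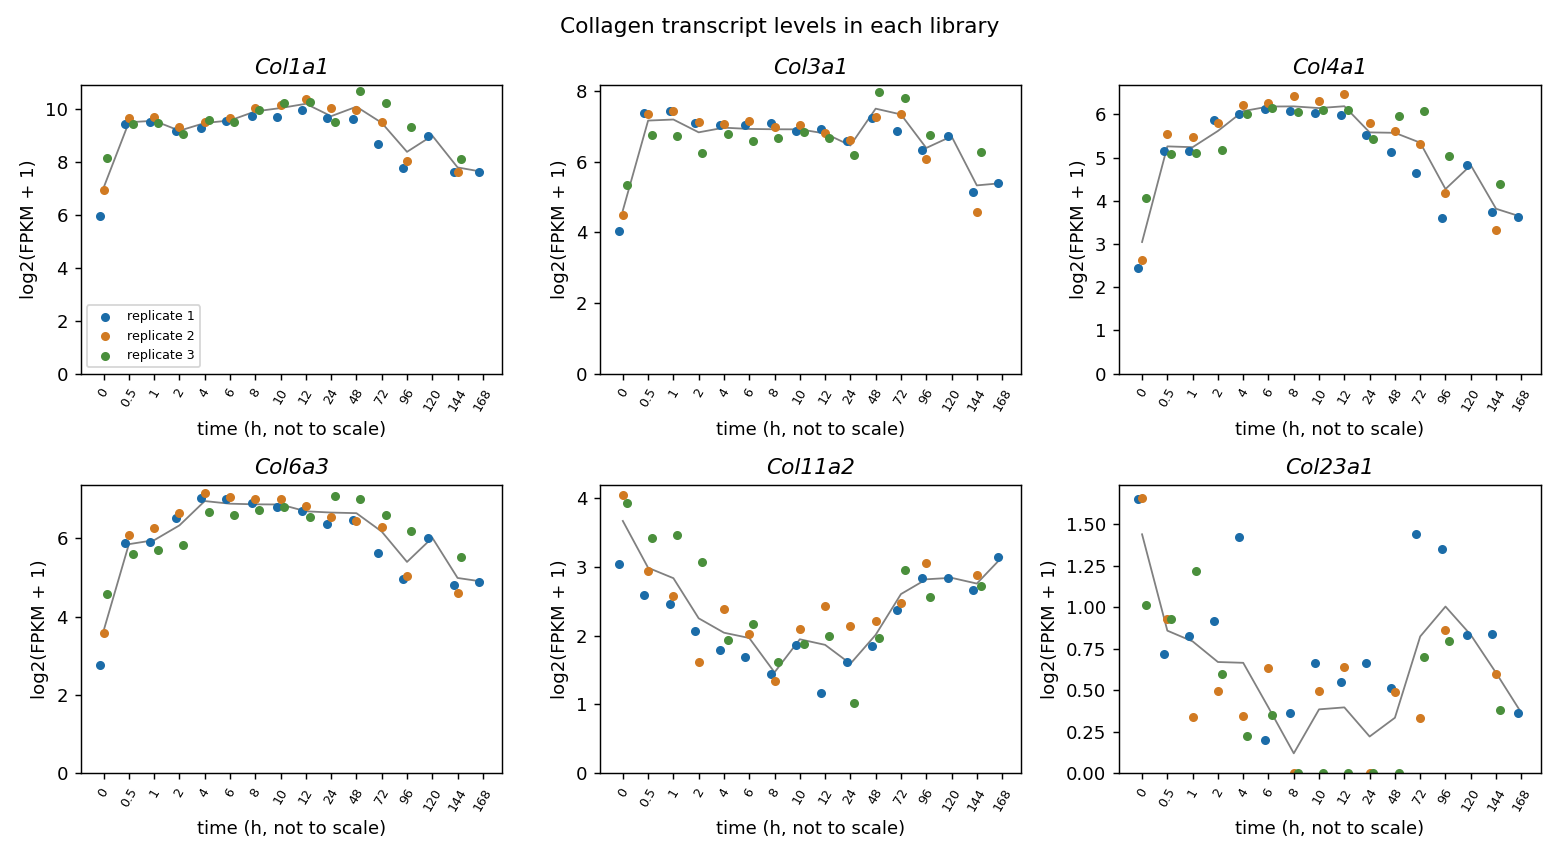
log2(FPKM + 1) in each library (points, coloured by replicate number) against time in hours (not to scale) for 6 collagen genes; the grey line joins the means. Col1a1, Col3a1, Col4a1 and Col6a3 step up between 0 and 0.5 h in unscaled values and come down after 72 h, while Col11a2 and Col23a1 are highest at 0 h.

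The basement membrane genes rose with them. Col4a1 and Col4a2, which pair into the common type IV network, were tested with Col4a5, a chain of specialised basement membranes, and Col18a1, the precursor of endostatin. All 4 were called higher at 0.5, 6, 24 and 72 h, none of them after scaling to the stromal markers at 0.5, 6 and 24 h. The shares of all genes called higher without scaling were 14.3, 19, 20.8 and 17.2%. Col4a1 was at 4.48, 5.16 and 15.7 FPKM at 0 h, 34.6, 45.6 and 33.0 after 0.5 h, 44.8, 55.1 and 41.99 by 24 h and 12.5, 8.95 and 19.8 by 144 h. Its 0.5 h and 24 h libraries lay above the 0 h range and those of 144 h overlapped it, with a log2 change of 2.22 ± 0.34 at 0.5 h (adjusted p = 1.33e-05 in limma) and 3.14 ± 0.34 at 6 h (adjusted p = 1.42e-08).

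Col4a2 was at 2.11, 4.49 and 10.7 FPKM at 0 h, 17.3, 26.8 and 23.2 after 0.5 h, 23.5, 37.5 and 34.9 by 24 h and 7.43, 5.40 and 14.6 by 144 h. The 0 and 144 h libraries overlapped and the others did not overlap 0 h, and the log2 change was 1.98 at 0.5 h and 2.997 at 6 h. Col4a5 was at 1.47, 2.76 and 4.44 FPKM at 0 h, 8.07, 9.43 and 8.57 after 0.5 h, 10.6, 12.3 and 8.48 by 24 h and 7.14, 3.78 and 10.6 by 144 h. At 144 h 1 of its 3 libraries fell inside the 0 h range, and the gene was still called higher, by 1.05 ± 0.28 (log2, adjusted p = 0.0153 in limma), a call that was lost without 0 h replicate 1 (0.76) and without 144 h replicate 3 (0.75). Col18a1 was at 0.704, 0.911 and 0.879 FPKM at 0 h, 6.62, 3.64 and 3.81 after 0.5 h, 4.13, 9.59 and 3.29 by 24 h and 2.75, 1.3015 and 6.14 by 144 h. It was low throughout, its 0 h libraries lay below all of the others just listed, and it reached its highest mean at 72 h (11.2 ± 6.36 FPKM, log2 change 2.58, adjusted p = 5.6e-06 in limma). Col18a1 reached 1 FPKM in 39 of the 42 replicated libraries, none of them at 0 h. It was thus tested through its later values, and its calls against 0 h are not independent of the filter.

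Of the 14 other types tested, 9, 10, 9 and 10 were called higher at 0.5, 6, 24 and 72 h. When scaled to the stromal markers, 0 were at the first 3 of these times. Without scaling, 14.3, 19, 20.8 and 17.2% of all genes were called higher. Type VI collagen, a beaded filament around cells, led the other types. Col6a1 was at 28.7, 56.3 and 70.5 FPKM at 0 h, 303, 376 and 160 after 0.5 h, 226, 276 and 217 by 24 h and 80.1, 58.3 and 162 by 144 h. Replicate 3 was the lowest library at 0.5 h and the highest at 144 h, and only the 144 h group overlapped 0 h. Col6a2 was at 16.995, 37.5 and 38.2 FPKM at 0 h, 188, 246 and 99.6 after 0.5 h, 124, 161 and 143 by 24 h and 48.5, 38.3 and 68.0 by 144 h. Replicate 3 was again the lowest at 0.5 h, and the lowest 144 h library lay just above the highest of 0 h, with log2 changes at 0.5 h of 2.48 ± 0.46 (adjusted p = 0.00016 in limma) for Col6a2 and 2.41 ± 0.46 (adjusted p = 0.000218) for Col6a1.

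Col6a3, the longest of these 3 chains of type VI, was at 5.75, 11.1 and 22.7 FPKM at 0 h, 57.8, 66.9 and 47.1 after 0.5 h, 81.0, 91.8 and 134 by 24 h and 27.1, 23.5 and 45.3 by 144 h. None of its later groups overlapped 0 h, and the change was 2.21 ± 0.33 at 0.5 h, 3.25 ± 0.33 at 6 h (adjusted p = 4.08e-09 in limma) and 1.35 at 144 h (adjusted p = 0.00774). The 144 h call was lost without 0 h replicate 1 (0.91) and without 144 h replicate 3 (1.08). Col8a1, a short-chain collagen of vessel walls and the cornea, was at 3.28, 6.29 and 12.1 FPKM at 0 h, 34.3, 38.4 and 28.6 after 0.5 h, 44.9, 38.3 and 34.7 by 24 h and 21.8, 13.4 and 22.6 by 144 h. All its later libraries lay above 0 h, and it rose by 2.22 ± 0.27 at 0.5 h (adjusted p = 3.93e-07 in limma), 2.73 at 6 h and 1.41 at 144 h (adjusted p = 0.000624).

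Col12a1, which decorates type I fibres, was at 40.8 ± 3.66 FPKM at 6 h against 7.81 ± 6.48 at 0 h. Col16a1, another fibril-associated type, was at 21.3 ± 1.39 against 4.02 ± 1.98, and it was the fourth member called higher at 144 h (log2 change 1.60, adjusted p = 0.000469 in limma) beside Col4a5, Col6a3 and Col8a1. Col10a1, the type X collagen of growth cartilage, was at 11.8 FPKM at 6 h against 2.07 at 0 h. Cartilage markers were low: of 7 chondrocyte markers 3 were tested, and Acan was listed at 0 in all 44 libraries. The 7 summed to 7.02 ± 2.85 FPKM at 0 h, 28.6 ± 17.3 after 0.5 h, 9.82 ± 3.12 by 6 h and 19.1 ± 6.12 by 24 h, and 2, 0 and 1 of the 3 were called higher at these later times. Sox9, a transcription factor of cartilage, went from a mean of 4.17 to 18.6 FPKM over the first 0.5 h and Comp, a cartilage matrix protein, from 2.08 to 9.26. Their part in the collagen results was not tested. Col6a5, a further type VI chain, was at 0.0419 FPKM before the change, 0.109 by 24 h and 1.54 ± 0.36 by 72 h. It reached 1 FPKM in 8 of the 42 replicated libraries, none of them before 48 h, so it was tested only because of its late values and its call at 72 h is not independent of the filter. Col7a1, the anchoring fibril of skin, was called higher at 6 h but stayed low, at 1.93 against 0.787 FPKM.

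The members called lower than at 0 h were Col11a2 and Col23a1. Col11a2, a type XI chain of cartilage fibrils, was at 7.21, 15.5 and 14.2 FPKM at 0 h, 5.06, 6.66 and 9.76 after 0.5 h, 2.07, 3.41 and 1.02 by 24 h and 5.37, 6.35 and 5.62 by 144 h. The 0.5 h group still overlapped 0 h, while the 24 and 144 h groups lay wholly below it. The log2 change was -0.68 after 0.5 h (adjusted p = 0.149), -1.70 ± 0.34 by 6 h (adjusted p = 0.000141), -2.08 ± 0.34 by 24 h (adjusted p = 7.65e-06), -1.06 at 72 h (adjusted p = 0.0179) and -0.91 at 144 h (adjusted p = 0.088), all by limma. The mean level was 12.3 FPKM at 0 h and 4.23 by 2 h, lowest by 8 h (1.77), and 6.14 by 96 h. The 72 h call was lost without 72 h replicate 1 or 2 and without 0 h replicate 2 or 3, with changes between -1.001 and -0.88 in these 4 fits. It was also lost with code group as a term (-0.73, adjusted p = 0.165 in limma) and scaled to the blood-cell markers (-0.0783, adjusted p = 0.863). That scaling moved the all-gene median at 72 h to 0.89, and 99.3% of the 8367 genes it called were higher.

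Col23a1, a membrane-spanning collagen, was at 2.14, 2.15 and 1.02 FPKM at 0 h, 0.645, 0.904 and 0.907 at 0.5 h, 0.585 and 2 values listed at 0 at 24 h, and 0.789, 0.513 and 0.301 at 144 h. Each of these later groups lay below 0 h, at levels where few fragments decide the value. Its log2 change was -1.04 ± 0.30 at 6 h (adjusted p = 0.00664 in limma) and -1.22 ± 0.30 at 24 h (adjusted p = 0.00153). When values were scaled to the blood-cell markers, which fell over the same hours, neither gene was called. At 24 h Col11a2 changed by -0.37 (adjusted p = 0.348 in limma) and Col23a1 by -0.52 (adjusted p = 0.113). That scaling moved the all-gene median at 24 h to 1.67, and 98.7% of the 11148 genes it called were higher. Few genes of any kind were called lower in it, so the missing calls are not a result about these 2 genes. Scaled to the stromal markers, the 24 h changes of Col11a2 and Col23a1 were -4.70 and -3.23, with an all-gene median of -2.67. Col9a3, a cartilage collagen, stood at 3.19 FPKM at 0 h and 1.48 at 6 h, and was not called at any of the 5 times.

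**Figure D3:**
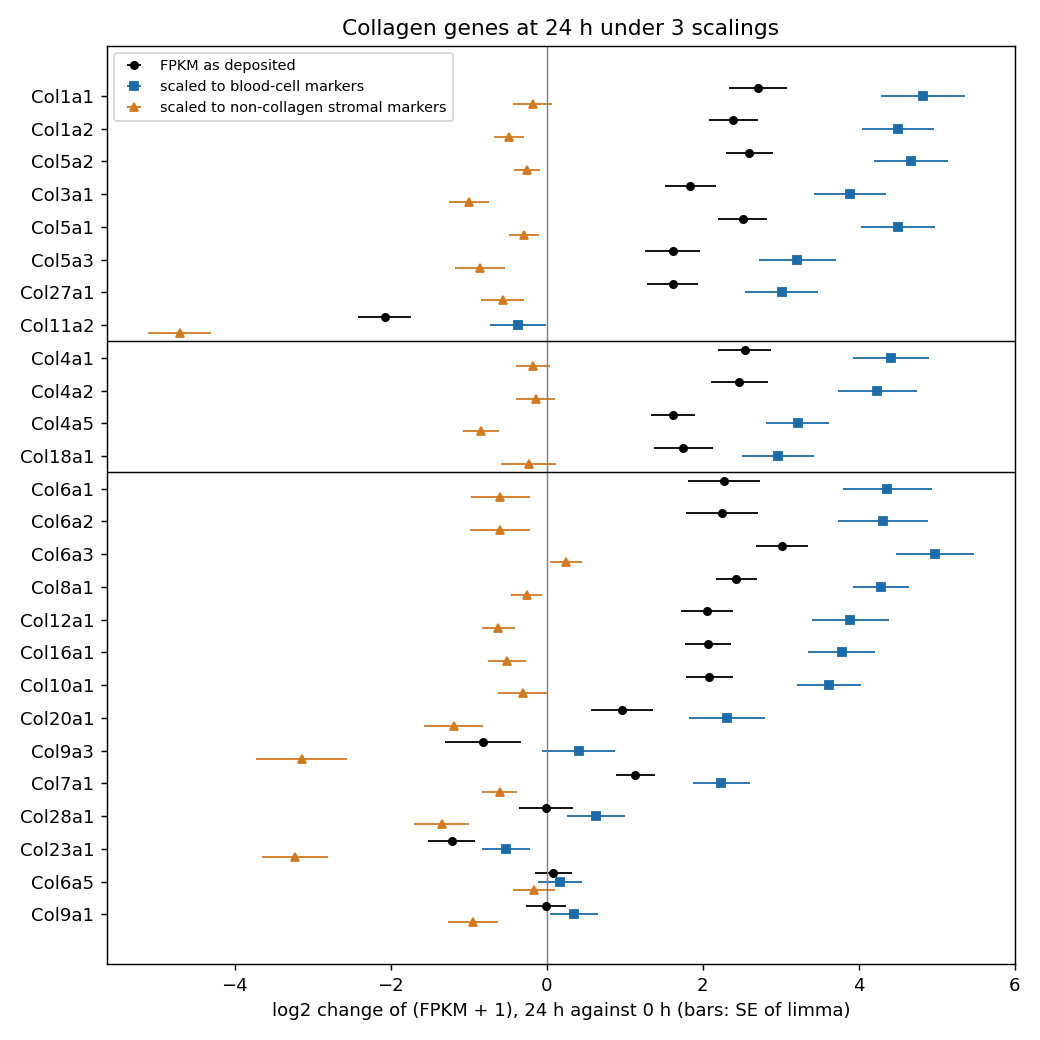
log2 change of each tested collagen gene at 24 h against 0 h (3 libraries each; bars are the SE of limma) in the deposited FPKM (black), after scaling to 20 blood-cell markers (blue) and after scaling to 21 stromal markers that are not collagens (orange). Scaling to the blood-cell markers brings Col11a2 to -0.37 and Col23a1 to -0.52, and scaling to the stromal markers puts every member except Col6a3 below 0. These scalings move the median of all genes to 1.67 and -2.67.

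Ratios within a library do not depend on how that library is scaled. Col1a1 to Col1a2 ran from 1.09 to 2.44 over the 44 libraries (median 1.68), and Col6a1 to Col6a2 from 1.49 to 2.39 (median 1.63). Col4a1 to Col4a2 ran from 1.15 to 2.40 (median 1.59). Col1a1 to Col1a2 was 1.51 ± 0.17 at 0 h, 1.62 ± 0.11 after 0.5 h, 1.88 ± 0.28 by 24 h and 1.35 ± 0.24 by 144 h.

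Other pairs varied more. Col1a1 to Col4a1 was 18.6 ± 5.16 at 0 h, with libraries between 13.6 and 23.9. It was 19.4 ± 1.48 after 0.5 h, 10.6 ± 0.228 by 6 h, 18.1 ± 0.887 by 24 h and 23.5 ± 2.84 by 48 h. The 3 libraries of 6 h (10.3 to 10.8) lay below all of those at 0.5 h (17.8 to 20.7) and at 48 h (20.8 to 26.4). An exact permutation test of 3 against 3 libraries cannot give a p below 0.1. Col6a1 to Col6a3 was 4.40 ± 1.12 at 0 h. It was 4.75 ± 1.19 at 0.5 h and 2.27 ± 0.487 at 6 h, again without overlap, and stood at 4.70 ± 0.809 at 72 h. Col1a1 to Col3a1 was 5.68 ± 1.66 at 0 h, 5.18 ± 1.17 after 0.5 h, 10.8 ± 2.13 by 12 h and 4.52 ± 0.968 by 72 h. As a share of collagen FPKM, the basement membrane genes made up 3.73% ± 0.396 before the change, 3.21% ± 0.278 after 0.5 h, 5.15% ± 0.471 by 6 h and 3.07% ± 0.219 by 48 h, while the fibrillar genes made up 65.7 to 73.5% at the replicated time points.

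**Figure D4:**
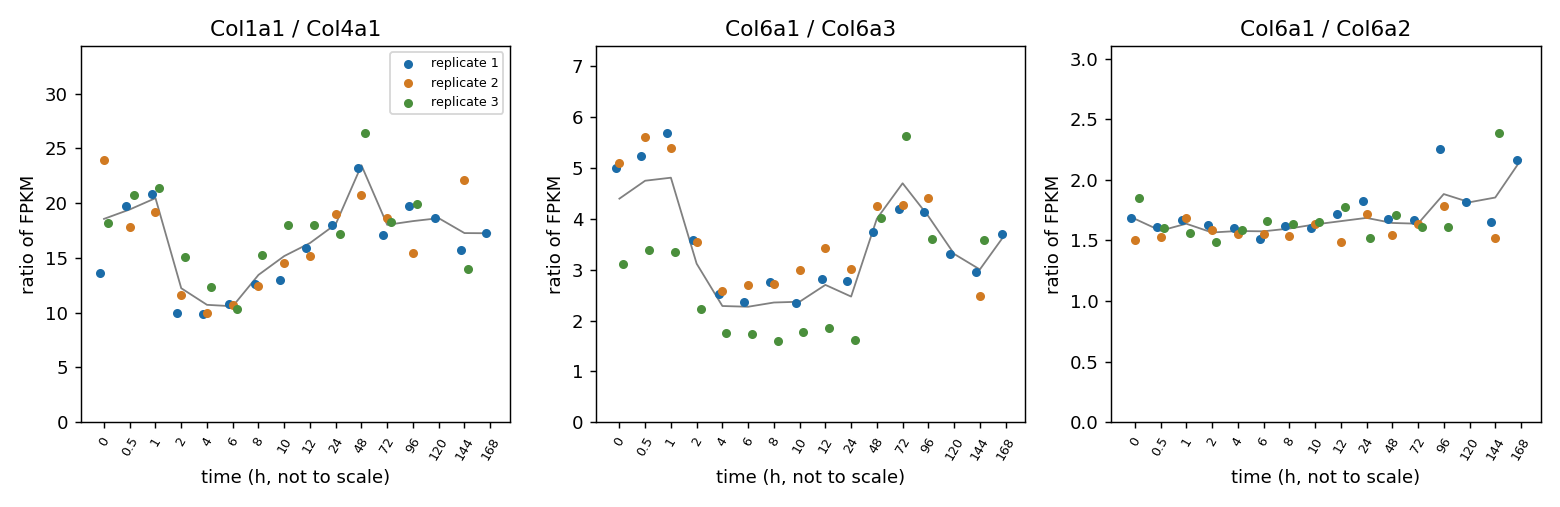
Ratio of FPKM within each library (points, coloured by replicate number; grey line, mean) against time in hours (not to scale) for 3 pairs of collagen genes. Col1a1 to Col4a1 is lowest around 4 and 6 h (10.6 at 6 h against 19.4 at 0.5 h), Col6a1 to Col6a3 is lowest from 4 to 24 h, and Col6a1 to Col6a2 stays between 1.49 and 2.39.

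A comparison of 6 h with 0.5 h, chosen after the values were seen, called 0 of 26 members higher and 0 lower in limma, where 3.1% of all genes were called higher and 3.38% lower. With replicate number as a block, 2 were called higher and 1 lower: Col4a2 by 1.02 (adjusted p = 0.0314), Col6a3 by 1.03 (adjusted p = 0.0397) and Col11a2 by -1.02 (adjusted p = 0.0296). The median change of the members was 0.06 and that of all genes -0.03. In the same comparison 8 of 23 stromal markers were called higher, with a median of 0.72. Col1a1 changed by 0.07 and Col1a2 by 0.05. The groups of Col4a1 did not overlap (37.7 ± 6.83 and 71.8 ± 4.05 FPKM), nor did those of members such as Col11a2 and Col12a1. Without the block limma called none of these, and the share of all genes without overlap was not counted.

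Members peaked at different times in the replicated groups. The highest mean was at 4 to 12 h for 12 members, among them Col1a1, Col4a1, Col4a2, Col5a1, Col5a2 and Col7a1 at 12 h. It was at 48 h for 7, which were Col1a2, Col3a1, Col4a5, Col6a1, Col6a2, Col16a1 and Col27a1, at 72 h for Col18a1, Col20a1 and Col9a3, at 96 h for Col6a5 and Col9a1, and at 0 h for Col11a2 and Col23a1. The highest and next highest means could differ by less than their SD. Col4a5 stood at 12.1 ± 1.98 FPKM at 48 h and 12.0 ± 1.91 at 72 h. Col4a1 stood at 72.9 ± 13.7 FPKM at 12 h and 72.4 ± 10.8 at 8 h. The libraries of 48 and 72 h were widely spread, as in Col1a1 with 413, 724 and 1214 FPKM at 72 h, where replicate 3 was the highest.

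From 24 to 144 h, 16 members were called lower (15.6% of all genes were) and 2 higher (17.4% of all). The median change was -1.09, against 0.08 over all genes. By class, 7 of 8 fibrillar genes, 2 of 4 basement membrane genes and 7 of 14 others fell. The largest fall was that of Col10a1, at -2.77 (adjusted p = 3.43e-08 in limma), and Col5a2 changed by -2.10 and Col1a1 by -1.94. The calls higher were Col11a2 (1.17, adjusted p = 0.00758) and Col6a5, whose late values had admitted it to the test (0.109 to 0.771 FPKM). For Col11a2 the call was lost without 24 h replicate 3 (0.88, adjusted p = 0.075) and scaled to the blood-cell markers (-0.072, adjusted p = 0.869). The count called higher was 0 in both of these fits, and 1 without 24 h replicate 1, 24 h replicate 2 or 144 h replicate 3. In the blood-cell scaling, 2.24% of the 10520 genes called from 24 to 144 h were higher. Col4a5, Col16a1 and Col18a1 were not called. Over the same interval 21 of 23 stromal markers were called lower and all 20 blood-cell markers higher. Scaled to the stromal markers 9 collagens were called higher and 3 lower. That scaling called 10716 of all genes, 99.1% of them higher. With code group as a term, 9 members were called lower, in a fit that called 3917 of all genes, 59.7% of them higher. The single code group that held both times had a member median of -0.51.

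The count of 4 members called higher at 144 h against 0 h rested on single libraries. It was 11 without 0 h replicate 3, 9 without 144 h replicate 2, and 2 without 0 h replicate 1, without 144 h replicate 3 or scaled to the stromal markers. It was 7 with a pseudocount of 0.1, 7 with a replicate block and 16 with code group as a term. In that order these fits called 1289, 1667 and 1619 of all genes, 69.9, 62.1 and 74.3% of them higher. The main fit called 1236, 63.5% of them higher.

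Genes that make, process, bind, sense and cut collagen were counted from lists of chosen genes. Of 23 modifying enzymes and chaperones tested, 18 were called higher and 2 lower at 24 h, where 20.8% of all genes were called higher and 22.5% lower. The largest changes were those of Creb3l1, a transcription factor that controls collagen production (3.77 to 43.1 FPKM, log2 3.21), the prolyl hydroxylases P4ha3 (2.77) and P4ha2 (8.33 to 51.8 FPKM, log2 2.68), and Plod2, a lysyl hydroxylase (2.68). Of 11 genes of procollagen processing and crosslinking, 9 were called higher and 0 lower. They included the lysyl oxidases Loxl1 (6.15 to 43.7 FPKM, log2 2.91) and Loxl3 (2.80), the enhancer of procollagen cleavage Pcolce (52.1 to 324 FPKM, log2 2.76), and the procollagen protease Adamts2 (2.74). Of 8 fibril-binding genes, 4 were called higher, namely Thbs2, Bgn, Sparc (238 to 1373 FPKM, log2 2.68) and Prelp.

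Among 8 collagen receptor genes, 5 were called higher and 2 lower at 24 h, against 20.8% and 22.5% of all genes. Ddr2, a receptor kinase for fibrillar collagen, rose from 7.75 to 57.1 FPKM (log2 2.87), Mrc2, an uptake receptor, by 2.57 and Itga11, an integrin of fibroblasts, by 2.46. Cd93, on the list but better known as a surface marker of early blood progenitors and B cell precursors, was 1 of the 2 called lower. It was at 60.4 ± 11.9 FPKM at 0 h and fell to 12.3 ± 2.34 (change -2.21 on the log2 scale, adjusted p = 9.96e-09 in limma). Of 5 collagen-degrading protease genes, 4 were called higher: Ctsk, Mmp14 (12.2 to 72.7 FPKM), Mmp13 and Mmp2. Mmp2 was low, at 0.230 ± 0.199 FPKM at 0 h and 1.42 ± 0.65 at 24 h. It was tested through its later values, and its call is not independent of the filter. Mmp13 was at 1.77 FPKM before the change, 9.80 after 0.5 h, 47.8 ± 9.26 by 6 h and 13.3 by 24 h. At 144 h the numbers called higher were 7 of 23, 5 of 11, 2 of 8, 2 of 8 and 3 of 5 in the order of these lists, with 1 receptor gene, Cd93, called lower, where 5.64% of all genes were called higher and 3.24% lower. The lists were not fitted apart from the stromal markers, which rose with them (23 of 23 called higher at 24 h).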

How the data were processed

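Poly(A) RNA libraries were analysed as FPKM values that the authors deposited for 23234 genes. TopHat2 2.1.0, Cufflinks 2.1.1 and the mm9 build are named in the submitters' processing notes. The file calls the values corrected, in a way not given in the sources used here, and depth is unknown. The unscaled log2(FPKM + 1) of the 13907 genes that reached 1 FPKM in 3 or more of the 42 replicated libraries went into a linear model of limma 3.58.1 (R 4.3.3, 1 mean per time point, eBayes with trend), and p-values were adjusted by Benjamini-Hochberg over all genes of a comparison, 0.05 being the threshold. The single libraries at 120 and 168 h were not fitted. Zeros are given as listed, because 26 of 4004 genes with a median of 20 FPKM or more had a 0 in some library. On simulated data for 24 h against 0 h (13907 genes), 60 of 100 2-fold and 93 of 100 4-fold changes were called, with 8 false calls. The changed genes were drawn from those with a mean log2(FPKM + 1) above 2, and the simulated noise was independent between libraries. These rates thus do not cover members at lower levels or shifts that libraries share. Collagens with library values are the 4 highest of each class and every member called lower against 0 h, and from each pathway list up to 4 called members with the largest change at 24 h are named. Members named beyond this rule were chosen after their values were seen, as were the members whose promoters are printed. The members, lists and comparisons were chosen with earlier results of these data known. Marker scaling subtracted the mean log2 value of the 20 blood-cell or 21 of the stromal markers with a mean of at least 5 FPKM. Code groups are runs of consecutive library codes in the labels. Replicates that share a number correlated, in their deviations from the time means, at -0.0632 to 0.411, over 0.1 in 14 of 21 pairs. All 3 pairs passed 0.1 only between 6 and 0.5 h (0.144 to 0.411), so the replicate block is given beside that comparison. Other alternatives were a pseudocount of 0.1, no filter, quantile and median-ratio scaling, a 2-fold minimum and leaving out each library.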

Additional observations from a re-analysis of the deposited data

Results flagged for a closer look

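The single libraries at 120 and 168 h entered no comparison. In the 120 h library, 21 of the 43 collagen genes stood above all 3 libraries of 0 h and 8 below them, among the latter Col11a2 and Col23a1. In the 168 h library 15 stood above and 6 below, Col10a1 and Col23a1 among the lower. Both were flagged because these values lie outside the fitted data, and neither time has a replicate. The share of all genes above or below was not counted, so these counts are not a result about collagens. Several of the lower genes were near the floor. Col11a1, Col15a1, Col19a1 and Col4a6, below in both libraries, had 0 h means of 0.119, 0.478, 0.205 and 0.273 FPKM.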

How the results depend on the processing

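Of 784 values of named collagens under alternatives that kept all libraries, 654 kept direction and side of the threshold, and of 588 that left out 1 library, 552 did. Of these alternatives, scaling to the stromal markers gave the fewest members called higher against 0 h at 0.5, 6, 24 and 72 h. It put the median of all genes at -2.40, -3.02, -2.67, -1.91 and -1.09 in the 5 comparisons with 0 h and at 1.53 from 24 to 144 h. Under it members called higher numbered 0, 0, 0, 5 and 2 at 0.5, 6, 24, 72 and 144 h and 9 from 24 to 144 h, and members called lower 5, 17, 13, 4 and 6, with 3 from 24 to 144 h and 8 from 0.5 to 6 h. Of all genes, 10716 were called from 24 to 144 h, 99.1% of them higher. From 0.5 to 6 h 2880 were called, 1.35% of them higher. Under this scaling these log2 changes turned. For 0.5 h against 0 h they became Col1a1 -0.0574, Col1a2 -0.155, Col5a2 -0.18, Col4a1 -0.15, Col4a2 -0.29, Col4a5 -0.75, Col18a1 -0.0949, Col6a1 -0.11, Col6a2 -0.0244, Col6a3 -0.22, Col8a1 -0.13. For 6 h against 0 h they became Col1a1 -0.78, Col1a2 -0.90, Col5a2 -0.69, Col3a1 -0.96, Col4a1 -0.0087, Col4a2 -0.0457, Col4a5 -1.52, Col18a1 -0.71, Col6a1 -0.90, Col6a2 -0.81, Col8a1 -0.39. For 24 h against 0 h they became Col1a1 -0.18, Col1a2 -0.49, Col5a2 -0.25, Col3a1 -0.99, Col4a1 -0.17, Col4a2 -0.14, Col4a5 -0.84, Col18a1 -0.23, Col6a1 -0.59, Col6a2 -0.60, Col8a1 -0.26. For 72 h against 0 h they became Col8a1 -0.0604. For 144 h against 0 h they became Col1a1 -0.42, Col1a2 -0.25, Col5a2 -0.68, Col3a1 -0.46, Col4a1 -0.32, Col4a2 -0.34, Col6a1 -0.29, Col6a2 -0.41. For 144 h against 24 h they became Col1a2 0.24, Col3a1 0.53, Col4a5 0.96, Col18a1 0.69, Col6a1 0.31, Col6a2 0.19, Col8a1 0.62. For 6 h against 0.5 h they became Col1a1 -0.72, Col1a2 -0.74, Col5a2 -0.50, Col8a1 -0.26.

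Scaled to the blood-cell markers, members called lower numbered 0 at 6, 24 and 72 h, members called higher 0 from 24 to 144 h and 4 from 0.5 to 6 h. Of all genes, 10520 were called from 24 to 144 h, 2.24% of them higher. From 0.5 to 6 h 1986 were called, 94.6% of them higher. Col11a2 turned to 0.15 at 0.5 h and -0.072 from 24 to 144 h, and from 0.5 to 6 h Col3a1 turned to 0.39, Col4a5 to 0.47, Col18a1 to 0.50, Col6a1 to 0.62 and Col6a2 to 0.63. From 0.5 to 6 h Col18a1 was 0.086 with quantile normalization, and Col6a1 and Col6a2 were 0.0065 and 0.012 with median-ratio scaling. Leaving out 1 library gave -0.14 to 0.22 for Col18a1, -0.37 to 0.32 for Col6a1 and -0.37 to 0.36 for Col6a2.

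With code group as a term, members called lower were 0 at 72 h and 9 from 24 to 144 h, and those called higher 16 at 144 h. From 0.5 to 6 h 4 were called higher and 1 lower. Of all genes, that fit called 3771 at 72 h, 1619 at 144 h, 3917 from 24 to 144 h and 1572 from 0.5 to 6 h. Of those called, 69.3, 74.3, 59.7 and 43.6% were higher. Col18a1 turned to 0.14 from 24 to 144 h. With the replicate block 7 were called higher and 2 lower at 144 h, and 2 higher and 1 lower from 0.5 to 6 h. Of all genes, that block called 1667 and 1274 in these comparisons, 62.1 and 43.8% of them higher. Other counts of calls under the block stayed within 1.5 times. Of 21 same-numbered pairs, 20 correlated best with their own number. Without a filter 1 member was called lower at 0.5 h and 2 at 72 h. A pseudocount of 0.1 gave 1 called lower at 6 h, 7 higher and 1 lower at 144 h and 1 higher from 24 to 144 h. Quantile normalization gave 2 lower at 72 h and 1 higher from 24 to 144 h, and a 2-fold minimum gave 1 higher there. Leaving out 1 library, members called higher ranged from 2 to 11 at 144 h and 0 to 2 from 24 to 144 h, and members called lower from 0 to 1 at 72 h and 0 to 1 at 144 h. The cause of these shifts was not tested. Unknown depth limits the members near 1 FPKM most.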
